A study of Homo sapiens with 4 samples.

Results

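PTBP1 and PTBP2 are paralogous RNA-binding proteins that control alternative splicing, and their own transcripts are alternatively spliced. The exons described here are all alternative splicing events that carry the gene symbol PTBP1 or PTBP2 in 5 tables of events from U87MG cells, a human glioblastoma cell line. They come to 24 of 121269 events, of which 14 are in PTBP1 and 10 in PTBP2. The question was whether inclusion of these exons differed between cells transfected with RBFOXi and cells transfected with SCRM. RBFOXi is a single-stranded oligonucleotide built of tandem copies of the motif bound by RBFOX1 and RBFOX2, with a 2′-O-methyl group on each ribose, and it serves as a decoy for these splicing factors. SCRM is the scrambled control oligonucleotide. Both were given at 2.5 µM, with 2 libraries of each, described in the study as independent biological samples of the same line. Replicates are numbered as in the sample descriptions. The oligonucleotide of RBFOXi replicate 1 is labelled as carrying the dye Cy5, and no dye is named for the other 3 samples.

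PTBP1 is present in most dividing cells and binds pyrimidine-rich RNA, often in the intron before an exon, where it usually promotes skipping. PTBP2 is its neuronal counterpart. PTBP1 is known to promote skipping of a 34-nt exon in the PTBP2 transcript, which shifts the reading frame and marks the transcript for nonsense-mediated decay (NMD), and skipping of the corresponding exon of PTBP1 is known as a loop by which PTBP1 limits its own level. PTBP1 exon 9 codes for part of the linker between RNA recognition motifs 2 and 3 of the protein, and proteins with and without it are known to differ in their activity as splicing repressors. RBFOX proteins bind UGCAUG. This motif after an exon is known from many exons as an enhancer of inclusion, and before an exon as a silencer.

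The exons are shown here from the hg19 genome, all on the plus strand and numbered by the MANE Select transcript of each gene in GENCODE 44. PTBP1 exon 9 is at chr19:805492-805569. It is shown because it has the most reads of the skipped exon events of either gene with a mean PSI (share of inclusion) between 0.05 and 0.95. Its capitals mark the 21 bases that are lost when a second 3′ splice site inside the exon, at 805513, is used.

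PTBP1 exon 9: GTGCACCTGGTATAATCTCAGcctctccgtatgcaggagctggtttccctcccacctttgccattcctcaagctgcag

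The first 60 nt of the next intron, chr19:805570-805629, hold 1 copy of the RBFOX motif, in capitals, which begins at intron nucleotide 35.

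after PTBP1 exon 9: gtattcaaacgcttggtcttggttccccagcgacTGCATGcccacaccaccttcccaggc

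The 34-nt exons of both genes are shown with the last 60 nt of the intron before them, since they are the exons tied to NMD in the annotation. Exon 11 of PTBP1 is at chr19:807869-807902 and exon 10 of PTBP2 at chr1:97271975-97272008, and capitals mark the exons.

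PTBP1 exon 11: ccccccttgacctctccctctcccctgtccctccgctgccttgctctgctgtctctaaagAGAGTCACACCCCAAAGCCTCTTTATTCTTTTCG

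PTBP2 exon 10: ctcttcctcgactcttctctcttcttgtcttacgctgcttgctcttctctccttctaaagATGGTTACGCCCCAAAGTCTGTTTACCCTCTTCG

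The 2 exons have the same base at 25 of 34 positions (73.5%). Both follow an intron whose last 50 nt are 80% pyrimidines, against a median of 60% before all 30617 distinct skipped exons that were tested, of which 2.07% reach 80%. Both are followed by RBFOX motifs, which begin at intron nucleotide 188 after PTBP1 exon 11 (chr19:808080-808105, given with 10 nt on each side) and at nucleotides 160 and 177 after PTBP2 exon 10 (chr1:97272158-97272183 and chr1:97272175-97272200).

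after PTBP1 exon 11: tttatcgcccTGCATGcttttcagag

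after PTBP2 exon 10, first copy: tttgttttaaTGCATGctaatttatt

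after PTBP2 exon 10, second copy: taatttatttTGCATGgtctttaatt

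In GENCODE 44, 7 PTBP1 transcripts contain the 78-nt form of exon 9, 1 contains the 57-nt form and 3 join exon 8 to exon 10, of which 1 is protein-coding and 1 is annotated as NMD. Both lengths are multiples of 3, so the reading frame is kept with or without the exon. The 34-nt exons shift the frame. Both PTBP1 transcripts that skip exon 11 are annotated as NMD. Of the 6 PTBP2 transcripts that skip exon 10, 3 are annotated as NMD and 0 as protein-coding.

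For each event the reads of a library were counted as fitting the form with the alternative region (inclusion) or without it (skipping). The proportion spliced in (PSI) is the length-corrected share of inclusion, from 0 to 1, and delta PSI is the mean over RBFOXi less the mean over SCRM, negative where RBFOXi cells included less. Summed over skipped exon events, the counts per library ran from 114415530 to 136097319, with a read counted once for each event it fits. The event table of U87MG cells held skipped exon events of VIM, CD44, TNC and NES, 4 of 7 glioma and astrocyte markers. A VIM event had up to 185009 counts in a library, and NES at most 432. GFAP, SOX2 and S100B had no such event. Of 5 neuronal markers, SYT1, SNAP25 and MAP2 had events, with at most 808 counts in a library, and RBFOX3 and DCX had none. SNAP25 had more counts than NES in every library. A gene can be expressed without a listed skipped exon event, so these absences do not measure expression.

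Reads over PTBP1 far outnumbered those over PTBP2 in all 4 libraries. Over exons included at a PSI of at least 0.95, the read density (inclusion counts per nt of effective length per 1000000 skipped exon counts) had a median over 7 PTBP1 exons of 0.316 and 0.411 after RBFOXi against 0.192 and 0.366 after SCRM. The median over 5 PTBP2 events, which lie at 4 exons since exon 9 is listed in 2 overlapping forms, was 0.00197 and 0.00233 with RBFOXi and 0.00066 and 0.00189 with SCRM. Within each library the PTBP1 median was between 161 and 291 times the PTBP2 median. These ratios depend on the events listed. PTBP1 exon 10 and the PTBP2 events other than exon 4 have a flanking exon that is not the adjacent one. PTBP1 exon 10 had the lowest density of the PTBP1 exons in each library, at 0.0541 in RBFOXi replicate 1. PTBP2 exon 4 lay above the PTBP2 median in each library, at 0.00274 in RBFOXi replicate 1. The effect on the ratios was not tested. SCRM replicate 1 had the lowest median for both genes. The medians of the groups overlapped for PTBP1, and single exons overlapped for PTBP2, such as exon 4, where SCRM replicate 2 was highest of all at 0.00493. For PTBP1 the group means were 0.363 ± 0.0666 after RBFOXi against 0.279 ± 0.123 after SCRM (SD, n = 2 each). For PTBP2 they were 0.00215 ± 0.000255 against 0.00128 ± 0.000871. These levels were not tested, and in bulk RNA fewer cells with a transcript and less transcript per cell cannot be told apart.

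**Figure D1:**
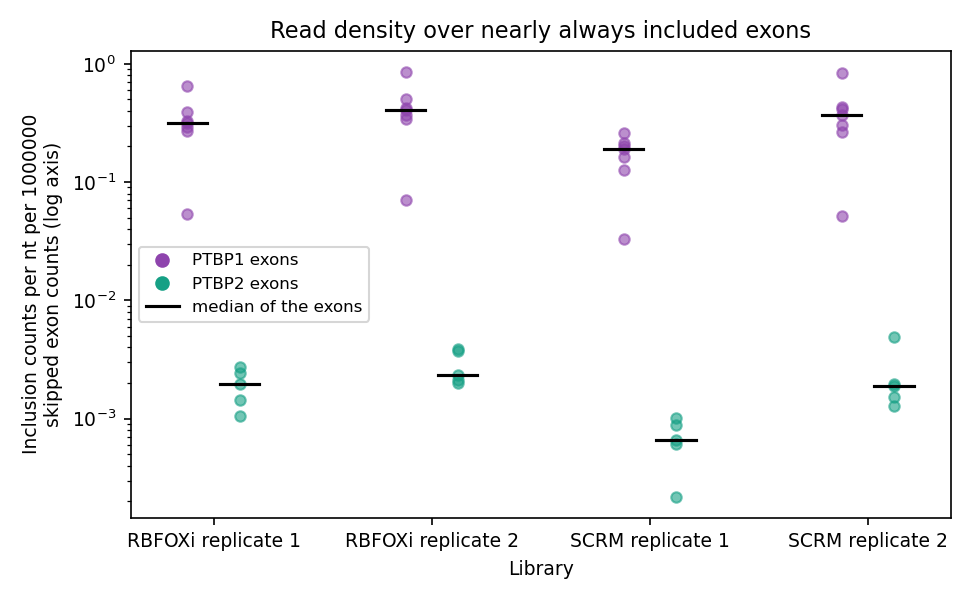
Read density over nearly always included exons of PTBP1 (7 exons, purple) and PTBP2 (5 events at 4 exons, green) in each library, as inclusion counts per nt of effective length per 1000000 skipped exon counts, on a log axis. Each point is an exon event and each bar the median, which lies between 0.192 and 0.411 for PTBP1 and between 0.00066 and 0.00233 for PTBP2, with SCRM replicate 1 lowest for both.

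Of the 24 events, 19 are skipped exons, 3 are pairs of mutually exclusive exons and 2 are choices between 3′ splice sites, and the skipped exon events lie at 17 distinct exons. A test required 5 or more counts per library, 20 on average and 4 or more of either form in total, which 13 events met, 10 in PTBP1 and 3 in PTBP2. The 4 PTBP1 skipped exon events that were not tested, at exons 3, 6, 10 and 13, had between 842 and 14003 counts in a library but only 1 or 2 skipping counts over all 4 libraries. The 7 PTBP2 events that were not tested had between 0 and 153 counts in a library. Those that are skipped exon events at exons 4, 5, 9 and 11 each had 1 skipping count over all 4 libraries.

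No PTBP1 or PTBP2 event was called changed with limma (adjusted p under 0.05 with a delta PSI of 0.1 or more in size). Among all tested skipped exon events 27 of 39615 were called (0.0682%), among mutually exclusive exons 0 of 26176 (0%), and among alternative 3′ splice sites 0 of 3009 (0%). The unadjusted p was under 0.05 for 2 of the 9 tested skipped exon events of PTBP1 and PTBP2, both of them PTBP1 exon 9, against 3.61% of all tested. It was under 0.05 for none of the 3 pairs of mutually exclusive exons, against 1.51% of all, nor for the 1 choice of 3′ splice site, against 3.32% of all. The quasi-binomial F test also called 0 of the 13 events. The PSI of the groups did not overlap for 4 of the 9 skipped exon events, against 30.8% of all tested. These 4 are not distinct exons. They are the 2 events of PTBP1 exon 9, which share their skipping counts, PTBP1 exon 2 between exons 1 and 3, and PTBP2 exon 13. Delta PSI in that event of PTBP1 exon 2 was only -0.0051.

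The median delta PSI was -0.000589 over the 10 tested PTBP1 events and 0.0856 over the 3 tested PTBP2 events. Over the 7 tested PTBP1 skipped exon events it was -0.00513, and over all 39615 tested skipped exon events -5.65e-05. The medians are not stable in sign. That of PTBP1 ran from -0.00883 without SCRM replicate 1 to 1.12e-05 without SCRM replicate 2, and that of PTBP2 was -0.0112 with a filter of 1 count per library and 0.0496 with PSI as a plain share of counts. Apart from inclusion of exon 9, the PTBP1 events each had a delta PSI below 0.01 in size, while each of the 3 PTBP2 events had a delta PSI of over 0.08 in size on few counts.

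**Figure D2:**
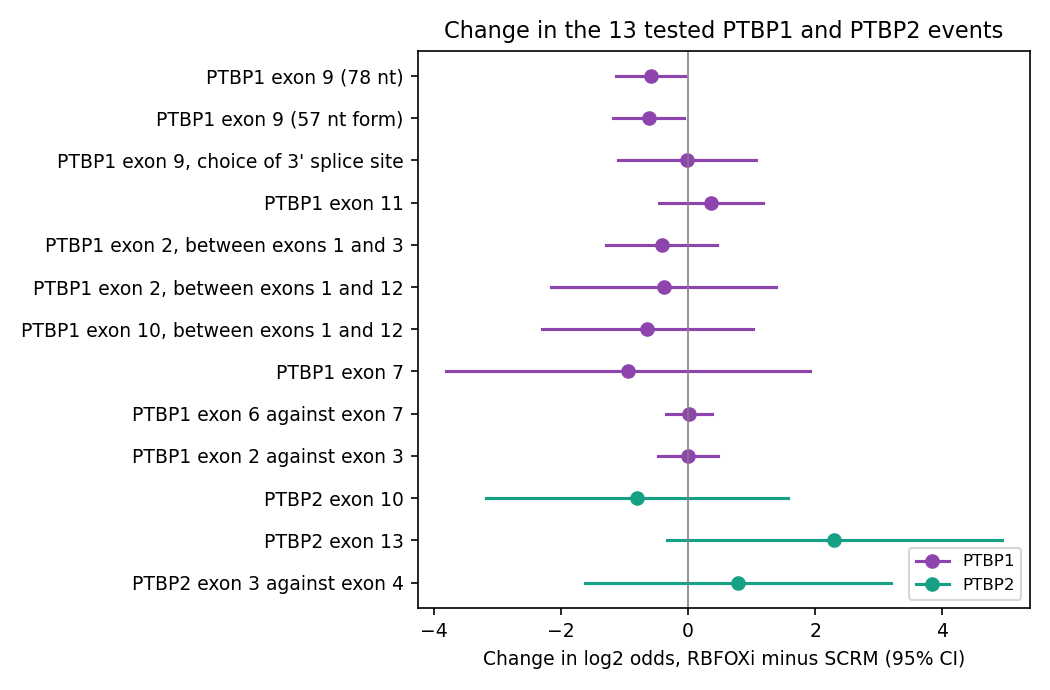
Change in the log2 odds of inclusion (RBFOXi minus SCRM) with its 95% confidence interval from limma for the 13 tested events of PTBP1 (purple) and PTBP2 (green). The intervals of the 2 inclusion events of PTBP1 exon 9 end just below 0, at -0.04 and -0.06. Those of the other 11 events include 0, widest for PTBP2 exon 13 and PTBP1 exon 7.

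Inclusion of PTBP1 exon 9 was lower in both RBFOXi libraries than in either SCRM library. PSI of the 78-nt form was 0.583 and 0.626 with RBFOXi, and 0.659 and 0.732 with SCRM. The means were 0.604 ± 0.0304 (SD, n = 2) and 0.696 ± 0.0516 (SD, n = 2), a delta PSI of -0.0913, and the gap between the nearest libraries of the groups was -0.0332. The counts behind these values were 1772 inclusion and 768 skipping in RBFOXi replicate 1, and 2978 and 1078 in RBFOXi replicate 2. They were 1290 and 404 in SCRM replicate 1, and 2713 and 601 in SCRM replicate 2. The groups do not overlap, but SCRM replicates 1 and 2 lie further apart than the nearest libraries of the groups do.

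The log2 odds of including exon 9 changed by -0.59 ± 0.25 (SE), with a 95% confidence interval of -1.14 to -0.04, an unadjusted limma p of 0.0369 and an adjusted p of 1.0. A delta PSI as low or lower was found for 1054 of the 39615 tested skipped exon events (2.66%). Only 11876 of the 39615 had a mean PSI between 0.05 and 0.95, as exon 9 had, and the share among these was not computed. Their median absolute delta PSI was 0.036, against 0.008 over all tested skipped exon events. The estimate was negative without any of the libraries, at -0.84 without SCRM replicate 1 and -0.34 without SCRM replicate 2. The quasi-binomial F test gave -0.63 with an unadjusted p of 0.00104 and an adjusted p of 0.281. The unadjusted limma p was above 0.05 with centred log2 odds (0.0761) and with a pseudocount of 0.1 (0.06). It was 0.0308 with a pseudocount of 1, 0.00828 with a filter of 1 count per library and 0.00128 with replicate number as a block. SCRM replicate 1, without which the estimate was larger in size, also had the lowest PTBP1 read density. Whether read density had a part in the difference was not tested.

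The 57-nt event of exon 9 had a PSI of 0.457 and 0.504 with RBFOXi and of 0.549 and 0.623 with SCRM. Delta PSI was -0.106. Its log2 odds changed by -0.62 ± 0.26 (SE) with an unadjusted limma p of 0.0336 and an adjusted p of 1.0. This is not a second measurement, since the event has the same skipping counts as the 78-nt form and shares the 57 bases of the exon with it. Use of the splice sites themselves is given by a separate event. The upstream site, which makes the 78-nt form, took 0.983 and 0.981 with RBFOXi and 0.979 and 0.985 with SCRM, on 739 to 1750 counts a library. Delta PSI there was 3.96e-06 and the log2 odds changed by -0.01 ± 0.50 (SE), with an unadjusted limma p of 0.986 and an adjusted p of 0.999. Where it was included, the exon was read almost wholly in its 78-nt form in both groups. The downstream site had 64 counts over all libraries, against 5066 for the upstream site. Most of the 3751 inclusion counts of the 57-nt event are therefore reads shared with the 78-nt form. Its PSI is not the share of the 57-nt form.

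**Figure D3:**
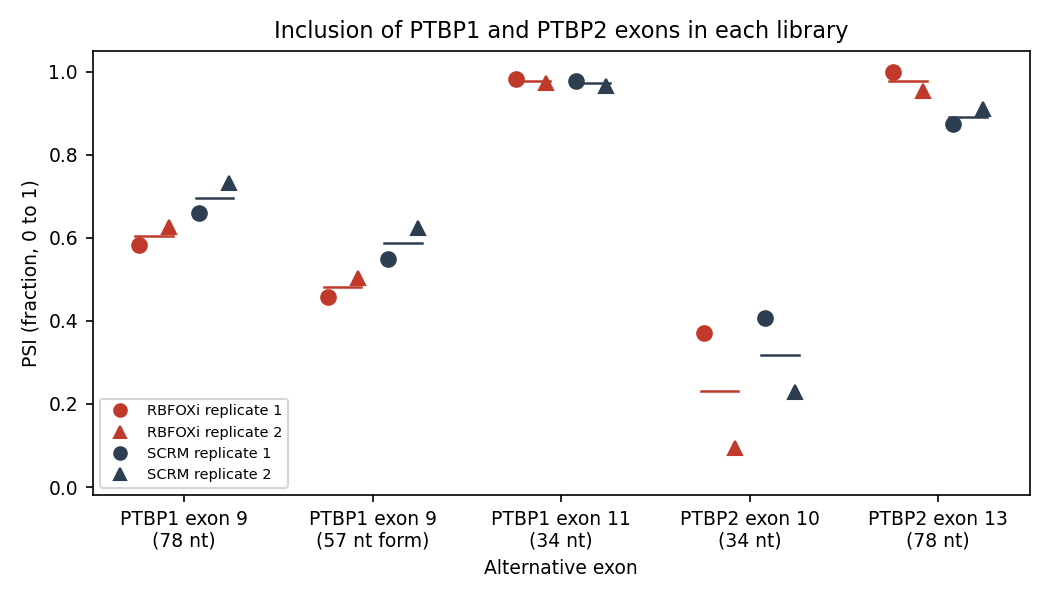
PSI (fraction, 0 to 1) of 5 exons of PTBP1 and PTBP2 in each library, RBFOXi in red and SCRM in dark blue, with circles for replicate 1, triangles for replicate 2 and a bar for each group mean (n = 2). The 78-nt event of PTBP1 exon 9 runs from 0.583 to 0.732 with the RBFOXi libraries lowest. The 57-nt event mostly counts reads shared with the 78-nt form. PTBP1 exon 11 stays above 0.96, and PTBP2 exon 10 spreads from 0.0932 to 0.406 with the groups mixed.

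PTBP1 exon 11, whose skipping is tied to NMD, was included almost fully in every library. PSI was 0.983 and 0.973 with RBFOXi and 0.977 and 0.966 with SCRM, on 1231 to 2841 counts a library and 346 skipping counts in all. The groups overlapped, and delta PSI was 0.00606. The log2 odds changed by 0.36 ± 0.38 (SE), with a 95% confidence interval of -0.46 to 1.18, an unadjusted limma p of 0.356 and an adjusted p of 1.0. Transcripts subject to NMD are known to be degraded, and these counts measure only what remained.

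Exon 2 of PTBP1, 31 nt near the start of the transcript, had a PSI of 0.984 and 0.977 with RBFOXi and of 0.987 and 0.985 with SCRM when it was skipped from exon 1 to exon 3, an unadjusted limma p of 0.324. Exons 2 and 10 also appear in events that join exon 1 directly to exon 12, with 42 such skipping counts in all, the same in both events. PSI in those events ran from 0.95 to 0.993, with the groups overlapping. Exon 7 had 4 skipping counts against 36349 inclusion counts.

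PTBP1 has 2 pairs of exons listed as mutually exclusive. Exon 6 against exon 7 had a PSI of 0.477 and 0.497 with RBFOXi and of 0.469 and 0.501 with SCRM, on 17601 counts for exon 6 and 13798 for exon 7. The groups overlapped, with a log2 odds change of 0.01 ± 0.16 (SE), an unadjusted limma p of 0.931 and an adjusted p of 1.0. Exon 2 against exon 3 had a PSI of 0.132 and 0.116 with RBFOXi and of 0.139 and 0.11 with SCRM, on 1036 and 21871 counts. The groups overlapped here too, with a log2 odds change of -0.01 ± 0.21 (SE), an unadjusted limma p of 0.974 and an adjusted p of 1.0. All 4 exons were included at a PSI of at least 0.977 in each library as skipped exon events between their annotated neighbours, so these ratios compare read counts of exons that are nearly always in the transcript and do not measure a choice between them.

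PTBP2 exon 10, the 34-nt exon that PTBP1 is known to repress, was mostly skipped in the reads counted. Its skipping is known to mark the transcript for NMD, and these counts measure only what remained. PSI was 0.37 and 0.0932 with RBFOXi and 0.406 and 0.228 with SCRM. The counts were small. RBFOXi replicate 1 had 7 inclusion and 19 skipping counts, RBFOXi replicate 2 had 2 and 31, SCRM replicate 1 had 3 and 7, and SCRM replicate 2 had 5 and 27. The groups overlapped, and the RBFOXi libraries differed from each other more than the group means did. Delta PSI was -0.0852 and the log2 odds changed by -0.81 ± 1.10 (SE), with a 95% confidence interval of -3.18 to 1.57, an unadjusted limma p of 0.477 and an adjusted p of 1.0. Without RBFOXi replicate 2 the estimate turned to 0.33. Both a fall and a rise lie within this interval.

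PTBP2 exon 13, a 78-nt exon at chr1:97278585-97278662 whose skipping keeps the frame and appears in 1 protein-coding transcript, was mostly included. PSI was 1.0 and 0.953 with RBFOXi and 0.873 and 0.909 with SCRM, and the groups did not overlap. Skipping was seen in 0, 2, 3 and 2 counts of 59, 69, 37 and 35, in the order RBFOXi replicates 1 and 2 and SCRM replicates 1 and 2. The log2 odds changed by 2.30 ± 1.22 (SE), with a 95% confidence interval of -0.33 to 4.94, an unadjusted limma p of 0.0818 and an adjusted p of 1.0. The estimate was 1.23 without RBFOXi replicate 1, 3.37 without RBFOXi replicate 2 and 3.38 with a pseudocount of 0.1.

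Exon 3 against exon 4 of PTBP2 had a PSI of 0.0468 and 0.214 with RBFOXi and of 0 and 0.0519 with SCRM, on 1, 7, 0 and 2 counts of exon 3 beside 49, 62, 11 and 88 of exon 4. The groups overlapped and RBFOXi replicate 2 stood highest. Delta PSI was 0.104, with a log2 odds change of 0.78 ± 1.07 (SE), an unadjusted limma p of 0.481 and an adjusted p of 1.0. The estimate was 1.78 without RBFOXi replicate 1, 0.47 without SCRM replicate 2 and 1.79 with a pseudocount of 0.1. Exon 4 had a PSI of 0.979 to 1.0 as a skipped exon event, so here too the ratio does not measure a choice between the exons.

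Motifs were searched on the strand of the gene in each of the 17 distinct skipped exons and in up to 300 nt of intron on each side. The 17 include exons that failed the count filter, while the shares beside them are over tested exons. The RBFOX motif UGCAUG was found after 5 of the 17 exons, of which the 2 forms of PTBP1 exon 9 share 1 copy, against 8.36% of all tested exons. The others were PTBP1 exons 10 and 11 and PTBP2 exon 10. It was found before 2 of the 17 exons, PTBP1 exon 10 and PTBP2 exon 11, against 8.16% of all, and the copies before PTBP2 exon 11 are the same ones that follow exon 10. It was in 0 of the 17 exons, against 3.37% of all. The copy after PTBP1 exon 9 is the nearest to its exon among the 17 exons searched. With 150 nt of intron, the count after the exons was 2 of 17, both of them forms of exon 9, against 4.77%.

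Of the motifs of PTB proteins, CUCUCU was found before 5 of the 17 exons, of which the 2 forms of PTBP1 exon 9 again share 1 copy, against 15.3% of all, and UUCUCU before 4, against 22.1% of all. These motifs can overlap each other. The intron before PTBP2 exon 10 held both, with CUCUCU ending 38 nt from the exon and UUCUCU 10 nt from it, in the stretch printed above. The 300 nt before PTBP1 exon 11 held neither. PTBP1 exon 2 had CUCUCU ending 4 nt before it, and PTBP1 exon 9 had a copy that ends 187 nt before it. After the exons, CUCUCU was found at 0 of 17, against 12.5% of all, and UUCUCU at 1, PTBP1 exon 10, against 17.9% of all. Within the exons, CUCUCU was in 0, against 4.43% of all, and UUCUCU in 2, against 5.16% of all. A match gives the letters and does not show that a protein was bound.

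**Figure D4:**
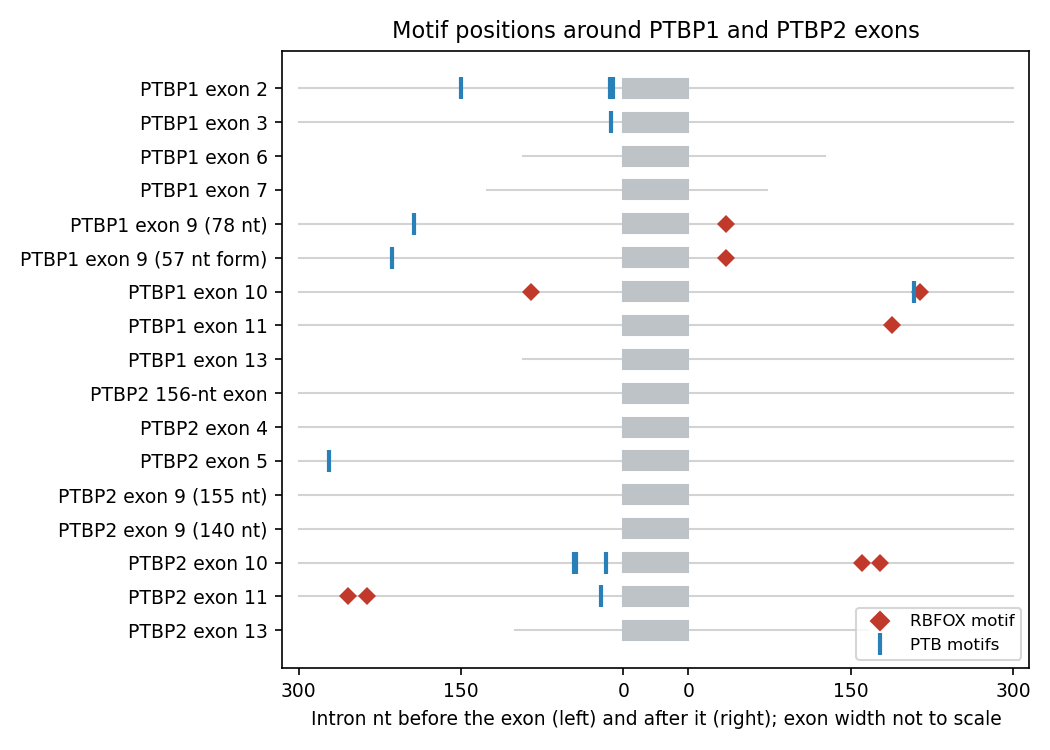
Positions of the RBFOX motif (red diamonds) and the 2 PTB motifs (blue bars) in up to 300 nt of intron before and after the 17 skipped exons of PTBP1 and PTBP2, with grey lines as long as the intron searched and exons drawn at 1 width. Distances are in nt from the exon to the first base of the motif. The RBFOX motif that follows PTBP1 exon 9 begins at intron nucleotide 35, and those after PTBP1 exon 11 and PTBP2 exon 10 at 188 and 160 or more.

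The paralogue and protein partners of PTBP1 gave no called event. PTBP3 is another member of the family, RAVER1, RAVER2 and MATR3 are proteins that bind PTBP1, and HNRNPL is a related splicing factor. Of their 33 events 18 were tested, 16 in PTBP3 and 1 each in RAVER2 and HNRNPL. None was called and none had an unadjusted limma p under 0.05, against 0.0374% and 2.81% of all 72115 tested events of the 5 types, so with 18 events these counts of 0 show nothing particular to the list. The smallest adjusted p was 0.995. The median delta PSI was -0.00479.

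Of 13 genes with exons known as targets of PTBP1, 10 had events and 9 had tested ones, 130 events in all. Called were 2 of the 130, 1 in CTTN and 1 in ACTN1, against 0.0374% of all tested events of the 5 types. The unadjusted p was under 0.05 for 23 (17.7%), against 2.81% of all, 12 lower and 11 higher with RBFOXi, and these lay in CTTN (10 of 27), TPM1 (7 of 15), ACTN1 (4 of 16) and FLNA (2 of 24), whose events overlap. No event of PKM, RTN4, DLG4, FAS or CLTB was under 0.05. None of SNAP91, SRC, MAPT and FGFR2 was tested. The median delta PSI over the list was 8.01e-05. The list was chosen with earlier results of these data known, and these counts are no independent evidence about PTBP1.

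In CTTN, cortactin, an actin-binding protein, a 111-nt exon at chr11:70267576-70267686 had a PSI of 0.469 and 0.374 with RBFOXi and of 0.799 and 0.767 with SCRM. It fell by 2.31 on the log2 odds scale (SE 0.248, limma adjusted p = 0.00151). In ACTN1, alpha-actinin 1, inclusion of an 81-nt exon at chr14:69345706-69345786 rose from 0.838 and 0.895 with SCRM to 0.966 and 0.971 with RBFOXi, by 2.21 ± 0.35 (SE) on the same scale with a limma adjusted p of 0.0347. The mutually exclusive pair of ACTN1 that holds this exon and a 66-nt exon had an adjusted p of 0.0552. In FLNA, filamin A, a 24-nt exon at chrX:153585619-153585642 had a PSI of 0.621 and 0.633 with RBFOXi and of 0.775 and 0.833 with SCRM, with an adjusted limma p of 0.0576. In TPM1, tropomyosin 1, the upstream of 2 mutually exclusive 76-nt exons, at chr15:63353397-63353472, had a PSI of 0.945 and 0.921 with RBFOXi and of 0.734 and 0.813 with SCRM, with an adjusted limma p of 0.235. The FLNA and TPM1 events are given because they had the smallest unadjusted p of their gene. Delta PSI was -0.361 in CTTN, beside the -0.0913 of PTBP1 exon 9.

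The skipped exon events whose 4 PSI values were closest to those of PTBP1 exon 9, among all tested genes, were in CNPY3, LPAL2 and FAM35A, at Euclidean distances of 0.0267, 0.0506 and 0.0514. The CNPY3 event had a PSI of 0.594 and 0.615 with RBFOXi and of 0.67 and 0.713 with SCRM. PTBP2 exon 13 had the most counts of the tested PTBP2 skipped exon events with a mean PSI below 0.95. The closest to it were in NR2C1, CNOT10 and TTC26, at distances of 0.0115, 0.0165 and 0.0182. These rest on 4 libraries and describe likeness of values only.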

How the data were processed

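The authors kept unique alignments to hg19 (STAR 2.4.2a) and made event counts with rMATS on UCSC known genes. The deposited values used are whole-number counts of inclusion and skipping reads per library, and effective lengths. The deposited p-value, FDR, inclusion levels and their difference are the authors' own results and were not used. PSI was computed from counts divided by length. limma 3.58.1 (R 4.3.3) fitted the log2 odds (pseudocount 0.5) over all events of a type that passed the filter, with a variance trend on the information in the counts, and adjusted by Benjamini-Hochberg within the type. The fit was tested on simulated data. Condition was the only term. The variance of each event was drawn toward this trend, so p-values do not rest only on the spread between its own 2 libraries a group. Sequences come from GRCh37 and transcripts from GENCODE 44 lifted to it. Python 3.11.15 and pandas 2.3.3 were used. Tested member events with a mean PSI from 0.05 to 0.95, and exon 11 of PTBP1 for its annotation, are described in full. The members, gene lists and motifs were chosen with earlier results of these data known, and 1 further gene of the target list is not reported here and is in none of its counts. Alternatives covered the test, pseudocount, filter, centring, PSI definition, delta PSI minimum, replicate block, motif window and each library left out.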

Additional observations from a re-analysis of the deposited data

How the results depend on the processing

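The count of called PTBP1 and PTBP2 events stayed at 0 in all 14 alternatives, and the log2 odds change of both forms of PTBP1 exon 9 stayed negative and short of the threshold in all 12 each, as far as these were run. For the 78-nt form the values without 1 library ran from -0.84 to -0.34. The replicate block gave -0.59 with a limma adjusted p of 0.181, and -0.62 with 0.199 for the 57-nt event. Most inclusion counts of the 57-nt event are shared with the 78-nt form. The sample descriptions number the libraries but do not say what a number shares, and same-numbered libraries deviated together with r between 0.0836 and 0.118, from 2 pairs, so they are not shown to pair the samples.

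For PTBP2 exon 10 the values without 1 library ran from -1.95 to 0.33, positive without RBFOXi replicate 2. PTBP1 exon 6 against exon 7 turned to -0.0691 with centred log2 odds and -0.0166 with the quasi-binomial F test, and ran from -0.0787 to 0.107 without 1 library. PTBP1 exon 2 against exon 3 turned to 0.0803 with the quasi-binomial F test and ran from -0.199 to 0.185 without 1 library. PTBP2 exon 10 could not be tested with a filter of 20 counts, nor PTBP2 exon 3 against exon 4 with that filter or without RBFOXi replicate 2.

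Over all genes, skipped exon calls went from 27 to 1 with a pseudocount of 0.1, 44 with a filter of 1 count, 58 under the quasi-binomial F test and 119 with the replicate block, and ran from 3 (without SCRM replicate 1) to 63 without 1 library. Mutually exclusive exon calls, 0 here, became 2 under the quasi-binomial F test, 2 with a pseudocount of 1, 5 with centring and 77 with the replicate block, and ran from 4 to 1431 (without SCRM replicate 2) without 1 library. Alternative 3′ splice site calls ran from 0 to 16 without 1 library. Alternative 5′ splice site calls, also 0, became 2 under the quasi-binomial F test and ran from 0 to 5 without 1 library. Retained intron calls stayed at 0. With a motif window of 150 nt, the exons followed by the RBFOX motif went from 5 to 2, since fewer bases were searched. The cause of the other moves was not tested.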
